A study of Homo sapiens with 3 samples.

Results

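The EGF receptor family and its ligands were followed here as 9 genes, the receptors EGFR, ERBB2 and ERBB3 and the ligands AREG, EREG, HBEGF, TGFA, BTC and NRG1. Every probe set that the platform annotation gives to exactly 1 of these symbols was taken, which gave 34 of 41091 single-symbol probe sets and 8 of the 9 genes. AREG, amphiregulin, had no probe set under that symbol in the annotation used and was not analysed here. U2OS, a human osteosarcoma cell line, had been transduced with a pMSCV retrovirus and harvested 5 days later. The 3 groups were a stable Set8b that resists the CRL4-Cdt2 ubiquitin ligase (labelled Set8_deltaPIP2), wild-type Set8b (labelled Wt-Set8b), and the empty vector (labelled pMSCV-vector). All were the same cell line carrying the same retroviral backbone, and the labels do not say whether the cells were a pool or a clone. Set8, the product of KMT5A, monomethylates histone H4 at lysine 20. With only 1 array per construct, no difference could be set against a repeat, and p-values are left out.

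The EGF receptor family consists of membrane tyrosine kinases that pair up when a ligand binds and then pass the signal on through RAS and ERK and through PI3 kinase and AKT. ERBB2 binds no known ligand and serves as a partner, and ERBB3 has a weak kinase and mainly docks PI3 kinase. The ligands are made as membrane-bound precursors that metalloproteases cut free. TGFA and AREG bind EGFR, HBEGF, EREG and BTC bind EGFR and ERBB4, and NRG1 binds ERBB3 and ERBB4.

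Values below are signals, the deposited linear probe-set intensities after quantile normalization, and log2 differences between 2 arrays. A probe set was counted as past the filter when its mean log2 signal lay at or above the median of all non-control probe sets, a signal of 37.0. Of the 34 probe sets 14 passed, from 6 genes (EGFR, ERBB2, ERBB3, HBEGF, TGFA and NRG1), and the brightest of them stood for the gene, as for all 12631 genes that passed. Levels of different probe sets cannot be compared, since each has its own affinity. The deposited median signal was 41.7 to 42.8 on the Set8b arrays and 38.6 on the vector array. Across 18 hybridisation spike-in probe sets the median ratio to the vector array was 0.796 for stable and 1.01 for wild-type Set8b. Across 27 poly-A spike-in probe sets it was 0.463 for stable and 0.453 for wild-type Set8b. The 4 probe sets of KMT5A itself lay between -0.76 and 0.90 log2 for stable Set8b over vector and between 0.18 and 1.23 for wild-type Set8b over vector. All 4 were above 0 with wild-type Set8b, while with stable Set8b they went both ways.

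Of 9 mesenchymal and bone markers with a probe set 7 passed the filter, among them VIM, COL1A1, RUNX2 and SPARC, and COL1A2 and TWIST1 did not. The summed signal over all 9 was 42334 with stable Set8b, 30924 with wild-type Set8b and 34014 with vector. Of the 7 that passed, FN1 and ALPL were at least 2-fold higher with stable Set8b than with vector and 0 were lower by that much, against 5.72% and 5.12% of all genes. In this sum FN1 gave 7339 with stable Set8b, 3789 with wild-type Set8b and 2515 with vector. RUNX2 went the other way, at -0.62 log2 over vector. Of 8 epithelial markers 6 passed, and their summed signal over all 8 was 10889 with stable Set8b, 9960.2 with wild-type Set8b and 8852 with vector. Of the stable Set8b sum, KRT18 gave 6617 and KRT8 gave 3783, so it mostly follows these genes. Of 5 leukocyte markers 2 passed, CD3D and CD79A, and PTPRC, the pan-leukocyte gene, did not. Their summed signal was 358 with stable Set8b, 316 with wild-type Set8b and 250.0 with vector. The 3 endothelial markers summed to 235, 199 and 158 in the same order of constructs, and CDH5 did not pass.

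The sequence just upstream of the annotated start is shown for 4 members past the filter, HBEGF and TGFA, at least 2-fold higher with stable Set8b than with vector, and EGFR and ERBB2, which were not. They are 250 bases on the gene's strand from RefSeq, GRCh38.p14, at chr5:140346604-140346853 (minus strand) for HBEGF, chr2:70553827-70554076 (minus strand) for TGFA, chr7:55018767-55019016 (plus strand) for EGFR and chr17:39687844-39688093 (plus strand) for ERBB2. Capitals mark GC boxes (GGGCGG on either strand), AP-1 motifs (TGANTCA, its own reverse complement) and TATA boxes (TATAAA on either strand), and neighbouring GC boxes may share letters.
HBEGF: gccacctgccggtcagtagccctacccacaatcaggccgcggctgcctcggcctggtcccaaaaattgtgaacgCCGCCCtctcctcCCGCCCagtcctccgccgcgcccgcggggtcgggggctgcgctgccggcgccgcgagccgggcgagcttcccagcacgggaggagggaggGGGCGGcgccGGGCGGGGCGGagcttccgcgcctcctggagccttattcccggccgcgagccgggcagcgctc
TGFA: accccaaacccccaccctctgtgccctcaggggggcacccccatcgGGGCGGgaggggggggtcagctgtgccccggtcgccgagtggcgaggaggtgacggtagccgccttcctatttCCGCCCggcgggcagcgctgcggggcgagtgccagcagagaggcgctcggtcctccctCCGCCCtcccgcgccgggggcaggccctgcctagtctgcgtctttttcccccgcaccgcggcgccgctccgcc
EGFR: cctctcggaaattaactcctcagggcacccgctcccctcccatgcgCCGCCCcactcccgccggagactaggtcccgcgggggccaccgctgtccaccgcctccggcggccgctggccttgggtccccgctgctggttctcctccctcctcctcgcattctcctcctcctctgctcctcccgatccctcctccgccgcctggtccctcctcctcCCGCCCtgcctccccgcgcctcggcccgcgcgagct
ERBB2: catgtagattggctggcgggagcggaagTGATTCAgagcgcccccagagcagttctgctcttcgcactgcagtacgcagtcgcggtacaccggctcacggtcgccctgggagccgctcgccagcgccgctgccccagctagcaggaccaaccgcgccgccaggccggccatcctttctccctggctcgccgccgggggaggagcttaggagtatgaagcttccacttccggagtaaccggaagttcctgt
The HBEGF window held 5 GC boxes, the TGFA window 3, the EGFR window 2 and the ERBB2 window 0. Windows of NRG1 and ERBB3, the members that differed most in size from vector, are not shown. ERBB3 had no entry among the promoter sequences used. Whether GC boxes go with the differences was not tested. A GC box stood in 42.6% of 35116 promoter windows of that length. The AP-1 letters were found 1 time in the ERBB2 window and 0 times in the other windows shown, against 6.57% of all windows. No TATA box was found in these windows, against 10.7% of all. The GC content was 76.4% for HBEGF, 75.6% for TGFA, 73.6% for EGFR and 65.6% for ERBB2, against a median of 58.0% over all windows. A match describes letters only. EGFR and TGFA each have a further annotated start, and the EGFR one held 2 AP-1 motifs.

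Stable Set8b was compared with the empty vector to see how the degradation-resistant form alters gene expression. Some ligands read higher and a receptor lower with stable Set8b, though the NRG1 probe sets disagreed and TGFA rested on 1. By the brightest probe set NRG1, TGFA and HBEGF were at least 2-fold higher, and ERBB3 was at least 2-fold lower. That is 3 higher and 1 lower of 6 measured members, where 5.72% of all 12631 genes read higher and 5.12% read lower by that much. Above 0 were 4 of the 6, against 49.6% of all genes. The median log2 difference of the 6 members was 0.86, against -0.0037 over all genes. In RNA from whole cultures, fewer cells that express a gene and less RNA per cell cannot be told apart. The SD between probe sets of the same gene was 0.44 log2 over 5952 genes. It holds probe noise and any differences between transcripts, and says nothing of how cultures vary.

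**Figure D1:**
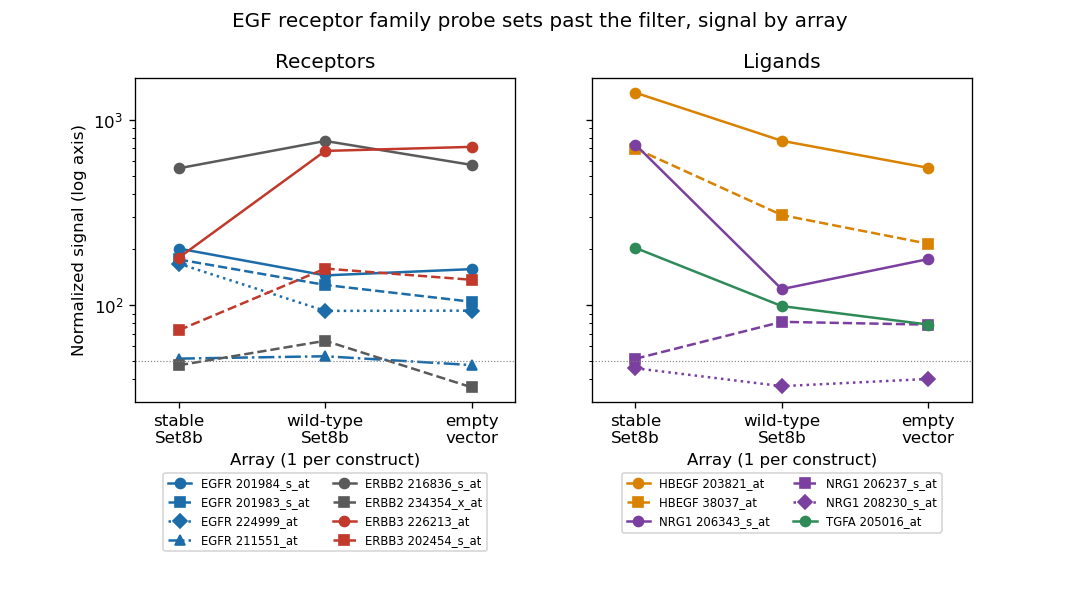
Normalized signal (log axis) of the 14 probe sets past the filter on the 3 arrays, receptors left and ligands right; each line joins 1 probe set's values, and the dotted line marks a signal of 50. HBEGF and TGFA descend through stable Set8b, wild-type Set8b and vector, while both ERBB3 probe sets are lowest with stable Set8b.

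HBEGF, heparin-binding EGF-like growth factor, was read by 2 probe sets past the filter that agree in order. Probe set 203821_at had a signal of 1398 with stable Set8b, 770.1 with wild-type Set8b and 551 with vector. Probe set 38037_at had 699.6 with stable Set8b, 306 with wild-type Set8b and 215 with vector. Both were highest on the stable Set8b array and lowest on the vector array. Their log2 differences for stable Set8b over vector were 1.34 and 1.71, which are 2.54-fold and 3.26-fold. By the brighter one, 97.0% of all genes lay at or below HBEGF. The remaining 2 probe sets of HBEGF were below a signal of 50 on all arrays.

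TGFA, transforming growth factor alpha, had 1 probe set past the filter, 205016_at. It read 204 with stable Set8b, 99.0 with wild-type Set8b and 78.7 with vector, the same order as HBEGF. The log2 difference of stable Set8b over vector was 1.37, or 2.59-fold. Its other probe sets, 205015_s_at and 211258_s_at, were below 50 on every array and went opposite ways, at 0.30 and -2.61. The TGFA value therefore rests on a single probe set.

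NRG1, neuregulin 1, is a gene with many transcripts made from several promoters, and its 3 probe sets past the filter disagreed. Probe set 206343_s_at read 734 with stable Set8b, 122 with wild-type Set8b and 177 with vector, 4.14-fold higher with stable Set8b than with vector (2.05 log2). Probe set 206237_s_at read 51.5 with stable Set8b, 81.4 with wild-type Set8b and 78.6 with vector (-0.61 log2). Probe set 208230_s_at read 45.8 with stable Set8b, 36.6 with wild-type Set8b and 40.1 with vector (0.19 log2). The first is high on the stable Set8b array alone, the second is lowest there, and the third hardly differs and lies below 50 throughout. The annotation ties the 3 to different transcript records, and which NRG1 transcripts each reads was not analysed here. With the mean over these probe sets NRG1 was at 0.54 log2, short of 2-fold.

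EREG, epiregulin, and BTC, betacellulin, did not pass the filter. EREG probe set 205767_at read 58.8 with stable Set8b, 16.8 with wild-type Set8b and 30.4 with vector, and 1569583_at read 29.7 with stable Set8b, 8.60 with wild-type Set8b and 4.17 with vector. Both EREG probe sets were highest with stable Set8b, but only 1 of these 6 values exceeds 50. With the dim side set to a signal of 50, the log2 difference of 205767_at over vector was 0.23. BTC probe set 207326_at read 20.5 with stable Set8b, 1.30 with wild-type Set8b and 10.3 with vector, all at levels that may be background, and 241412_at stayed below the floor of 7.7 on all arrays.

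In the RefSeq gene order of GRCh38.p14, the protein-coding genes EPGN, EREG, AREG and BTC follow each other on chromosome 4, between MTHFD2L and PARM1. MTHFD2L, a mitochondrial folate enzyme, was at -0.10 log2 for stable Set8b over vector by the brightest of 6 probe sets, which ranged from -1.45 to 1.54. PARM1 was at -0.63. The chemokine gene CXCL8, on the same chromosome beyond MTHFD2L, read 466 with stable Set8b, 48.1 with wild-type Set8b and 19.7 with vector. Of 5 listed neighbours that passed, 1 was at least 2-fold higher (CXCL8) and 0 lower, against 5.72% and 5.12% of all genes. CXCL8 passed the filter through its high signal on the stable Set8b array.

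ERBB3 was the member that read lower. Probe set 226213_at had a signal of 181 with stable Set8b, 679 with wild-type Set8b and 714 with vector. Probe set 202454_s_at had 73.4 with stable Set8b, 158 with wild-type Set8b and 137 with vector. Both were lowest on the stable Set8b array, and the wild-type and vector arrays lay close together. The log2 differences for stable Set8b over vector were -1.98 and -0.90, that is 3.95-fold and 1.87-fold lower, and 0.459% of all genes lay at or below the brighter value. The probe set 1563253_s_at, just short of the filter, read 75.8 with stable Set8b, 10.6 with wild-type Set8b and 51.5 with vector and went the other way. Of the 6 epithelial markers past the filter, 5 lay above 0 for stable Set8b over vector and 1 below, against 49.6% of all genes above 0. The one below was EPCAM, at 169 with stable Set8b, 425 with wild-type Set8b and 431 with vector, and the highest was CDH1, at 78.6 with stable Set8b, 17.8 with wild-type Set8b and 38.1 with vector. CDH1 passed the filter through its signal on the stable Set8b array and was below 50 on the other arrays. The part of these markers in the ERBB3 difference was not tested.

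EGFR had 4 probe sets past the filter, none of which reached 2-fold. Probe set 201984_s_at, the brightest, read 202 with stable Set8b, 145 with wild-type Set8b and 157 with vector (0.37 log2 over vector). Probe set 201983_s_at read 176 with stable Set8b, 129 with wild-type Set8b and 104 with vector (0.76). Probe set 224999_at read 168 with stable Set8b, 93.3 with wild-type Set8b and 93.5 with vector (0.84). These 3 were each highest on the stable Set8b array, by 1.29-fold to 1.79-fold over vector. The fourth, 211551_at, read 51.6 with stable Set8b, 53.1 with wild-type Set8b and 47.6 with vector (0.12), near the level of background.

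ERBB2 was highest on the wild-type Set8b array. Probe set 216836_s_at read 547 with stable Set8b, 768 with wild-type Set8b and 571 with vector, and 234354_x_at read 47.5 with stable Set8b, 64.3 with wild-type Set8b and 36.1 with vector. For stable Set8b over vector the differences were -0.06 and 0.39 log2. Both are smaller than the SD of 0.44 between probe sets of 1 gene, which does not measure how cultures vary. Of 4 neighbours of ERBB2 on 17q that passed the filter, 0 were at least 2-fold higher and 0 lower, against 5.72% and 5.12% of all genes. At such shares 0 of 4 is no result about the neighbours. PGAP3 was at -0.70 and MIEN1 at 0.19.

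**Figure D2:**
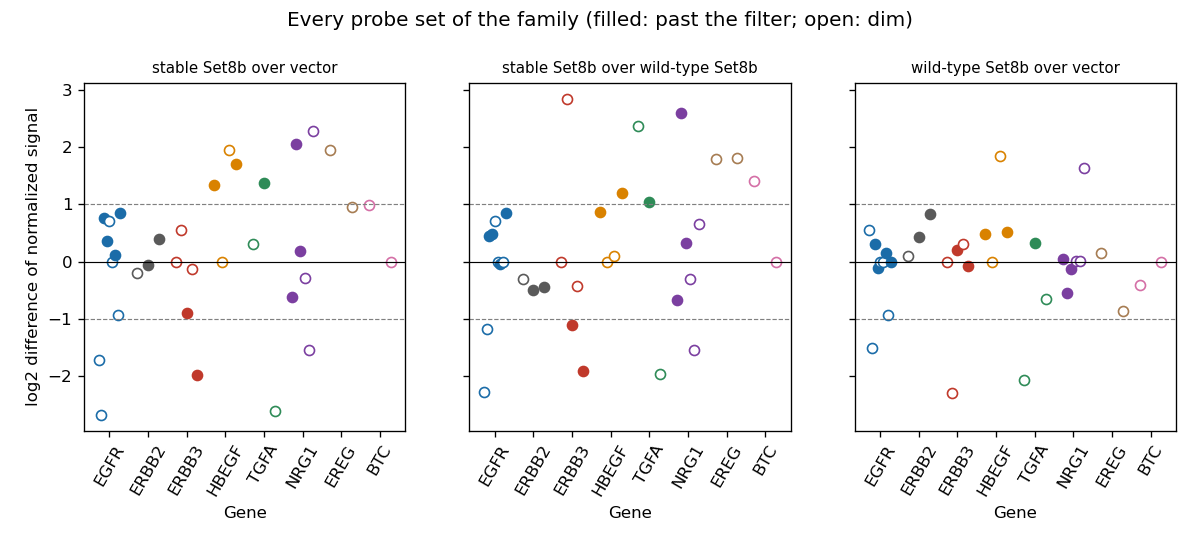
Log2 difference of every one of the 34 probe sets in the 3 comparisons, by gene; filled points passed the filter, open points did not, and dashed lines mark 2-fold. Filled points for wild-type Set8b over vector lie between -0.54 and 0.83, while open points there reach -2.28 and 1.84.

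Dim probe sets of the same genes had a wider range than the others, most of all between the wild-type Set8b and vector arrays. The 20 that did not pass ran from -2.67 to 2.28 log2 for stable Set8b over vector, and from -2.28 to 1.84 for wild-type Set8b over vector. The 14 that passed ran from -1.98 to 2.05 for stable Set8b over vector, and from -0.54 to 0.83 for wild-type Set8b over vector. The median size of the difference was nearly the same for stable Set8b over vector, 0.81 for dim and 0.80 for passing probe sets. The extreme of -2.67 is EGFR probe set 1565484_x_at, which read 8.60 with stable Set8b, 19.4 with wild-type Set8b and 54.7 with vector.

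**Figure D3:**
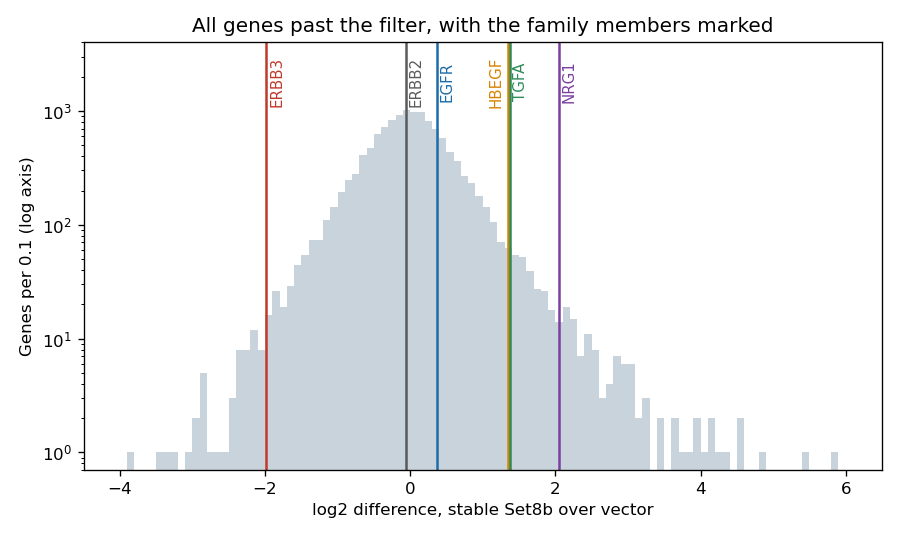
Number of genes per 0.1 log2 (log axis) against the log2 difference of stable Set8b over vector, for the 12631 genes past the filter, with the 6 measured members as lines. Each line is the brightest probe set of the gene. NRG1 (2.05), TGFA (1.37) and HBEGF (1.34) stand in the upper tail and ERBB3 (-1.98) in the lower one. EGFR (0.37) and ERBB2 (-0.06) stand nearer the centre. Other EGFR probe sets past the filter reached 0.84, and those of NRG1 were at -0.61 and 0.19.

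Stable Set8b was next set against wild-type Set8b, the form that the ligase can degrade. In this comparison the 4 KMT5A probe sets were all lower with stable Set8b, between -1.08 and -0.06 log2. The stable Set8b array enters here too, so the values are given side by side and not as a second observation. At least 2-fold higher were 2 of 6 members, NRG1 at 2.59 log2 and TGFA at 1.04, against 4.96% of all genes. The other NRG1 probe sets past the filter were at -0.66 and 0.32, and with the mean over probe sets NRG1 was at 0.75, short of 2-fold, and HBEGF at 1.03. At least 2-fold lower was 1, ERBB3 at -1.91, against 5.23% of all genes. Both ERBB3 probe sets past the filter were beyond 2-fold here (-1.91 and -1.10). HBEGF was at 0.86 by 203821_at and 1.19 by 38037_at, so whether it passes 2-fold depends on the probe set. The 4 EGFR probe sets lay between -0.04 and 0.85, and the ERBB2 ones at -0.49 and -0.44. The median of the 6 members was 0.67, against -0.02 over all genes.

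For wild-type Set8b over vector, 0 of 6 members were at least 2-fold higher and 0 lower, against 1.67% and 1.05% of all genes. HBEGF was at 0.48 and 0.51 log2 by its 2 probe sets, TGFA at 0.33, and ERBB2 at 0.43 and 0.83. Probe sets of the same gene differed here with an SD of 0.41. NRG1 206343_s_at was at -0.54, so for this probe set wild-type Set8b read below the vector and stable Set8b above it. ERBB3 was at -0.07 and 0.20, and EGFR lay between -0.11 and 0.30. The median of the 6 members was 0.13, against 0.0086 over all genes.

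The nearest patterns were sought for the members with the highest and the lowest difference, over the pair of differences from the vector array on these 3 arrays. With 3 arrays such a likeness is a description only. Nearest to NRG1 206343_s_at (2.05 for stable and -0.54 for wild-type Set8b over vector) was ADAM28, a metalloprotease gene, at 1.99 and -0.51. Then came ANTXR2, an anthrax toxin receptor gene, at 1.96 and -0.49, LINC00513, the G protein regulator RGS5, and the core histone gene H2BC9 at 2.01 and -0.26. Nearest to ERBB3 (-1.98 for stable and -0.07 for wild-type Set8b over vector) were KHK, which encodes ketohexokinase, at -1.99 and -0.09, and SPC24, a kinetochore subunit gene, at -1.97 and -0.03. NPY1R, FUT9 and PALM3 followed. Only 1 gene lay within 0.1 log2 of NRG1, against 7 for ERBB3.

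Other genes of the pathway passed 2-fold at shares near or below those of all genes. Of 85 genes in 6 pathway lists 72 passed the filter, and 2 were at least 2-fold higher with stable Set8b than with vector (ADAM12 and CD44) and 0 lower, against 5.72% and 5.12% of all genes. Their median was 0.16 log2. Against wild-type Set8b 3 were at least 2-fold higher, ADAM12, CD44 and CD82, and 0 lower, against 4.96% and 5.23% of all genes. For wild-type Set8b over vector, RHBDF2 was at least 2-fold higher and GAB1 at least 2-fold lower, against 1.67% and 1.05% of all genes. Counts this small tell nothing particular about the lists.

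Among the remaining family members, EGF itself read 140 with stable Set8b, 117 with wild-type Set8b and 137 with vector. NRG2 read 43.8 with stable Set8b, 60.9 with wild-type Set8b and 36.3 with vector. ERBB4, the other neuregulin receptor, did not exceed 25.2 with any of its 4 probe sets on any array. NRG3 and NRG4 stayed below 50, and EPGN had no probe set under its symbol alone.

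The list of proteases that cut the ligand precursors, with genes that act on such proteases, had 10 genes, all past the filter. For stable Set8b over vector 9 lay above 0, against 49.6% of all genes, and 1 was at least 2-fold higher. Among the 9 were TIMP3, an inhibitor of such proteases, at 0.45, and FURIN, a processing protease of ADAM precursors, at 0.39. The median of the 10 was 0.58. ADAM12, a metalloprotease that can cut the HBEGF precursor, read 513 with stable Set8b, 125 with wild-type Set8b and 173 with vector (1.57), but its 4 probe sets ranged from 0.27 to 1.57. RHBDF1 and RHBDF2, which encode iRhom partners of ADAM17, were at 0.98 and 0.97, and ADAM15 was at 0.92 by one probe set and -0.06 by the other. RHBDF2 was equally high with wild-type Set8b, at 396 with stable Set8b, 410.5 with wild-type Set8b and 202 with vector. ADAM17, the main protease of TGFA, was at 0.16 by the brightest of 3 probe sets, which reached down to -0.68, and ADAM10, which cuts EGF and BTC precursors, at -0.15.

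By the brightest probe set, CD44 had the largest difference among 11 co-receptors and chaperones. It encodes a hyaluronan receptor that can hold the HBEGF precursor at the membrane. It read 3208 with stable Set8b, 782 with wild-type Set8b and 717 with vector, and all 9 of its probe sets past the filter lay between 1.88 and 2.76 log2 over vector. IGF1R, the insulin-like growth factor receptor gene, was at 0.75, CDC37, a kinase chaperone, at 0.52 and CD82, a tetraspanin, at 0.45 and 0.94. The 2 NRP1 probe sets past the filter were at -0.15 (the brightest) and 3.51 over vector. For wild-type Set8b over vector they were at 0.13 and 3.43. For stable Set8b over vector CD9 was at -0.37 (the brightest) and -1.47. MUC1 ranged from -1.10 to 0.26 over 3 probe sets. The median of the 11 was 0.07.

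Of 22 measured adaptors and first kinases 0 passed 2-fold in either direction by their brightest probe sets, with a median of 0.17. At shares of 5.72% higher and 5.12% lower over all genes, a 0 in a list of this size or smaller is no result about the list. SHC1, an adaptor that links the receptors to RAS, read 7549 with stable Set8b, 4522 with wild-type Set8b and 3966 with vector (0.93, with its other probe set at 1.34). GAB1, a docking protein gene, was at -0.54, GAB2 at 0.52 and MAPK3, which encodes ERK1, at 0.43. Of 15 receptor inhibitors and ubiquitin ligases 0 passed 2-fold, with a median of 0.06. ERRFI1, a feedback inhibitor of the EGFR kinase, read 1452 with stable Set8b, 1004 with wild-type Set8b and 740.4 with vector (0.97), the same order as HBEGF and TGFA. SOCS3 was at -0.93, with 3 probe sets between -1.43 and -0.22. PTPN1 was at 0.50 and LRIG1, another inhibitor of the family, at 0.48. Of 12 genes of endocytosis and recycling 0 passed 2-fold by their brightest probe sets. EHD1, a recycling factor gene, was at 0.87 (4 probe sets between 0.85 and 1.30). CAV1, caveolin 1, was at -0.77, with its other probe set at -1.02.

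**Figure D4:**
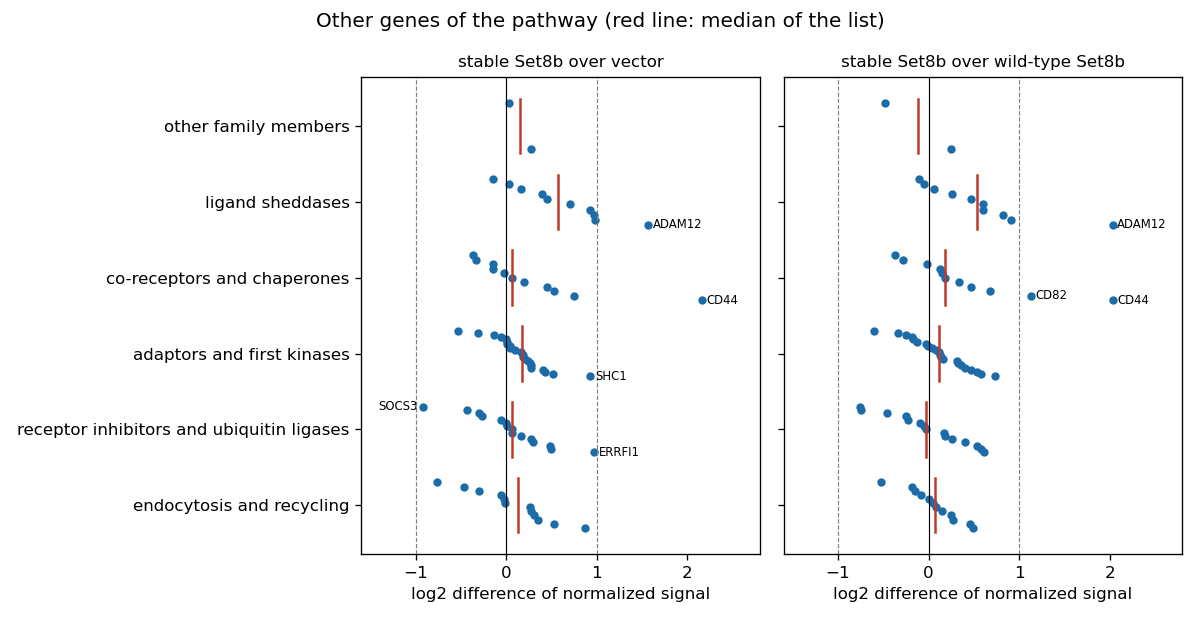
Log2 difference (x axis) of each measured gene in 6 pathway lists for stable Set8b over vector and over wild-type Set8b; points are genes, red lines list medians and dashed lines 2-fold. CD44 and ADAM12 lie beyond 2-fold in both panels. The list labelled ligand sheddases, which also holds the inhibitor TIMP3, has medians of 0.58 and 0.54.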

How the data were processed

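Total RNA from 3 U2OS cultures, 1 per construct, was extracted with Trizol, labelled with biotin and hybridised by the Affymetrix protocol, per the labels' protocols. The deposited table gives a linear intensity for each of 54675 probe sets per array, 62 of them controls. The summarisation software is not given in the sources. Every array had a 2% trimmed mean of 250.0. Controls were left out, arrays were quantile normalized because their log2 medians spanned 0.146, values were set to at least 7.7 (the 20th percentile), and log2 was taken. Of 41091 probe sets with 1 symbol, 41037 were found by Entrez identifier in the RefSeq table of GRCh38.p14, with 0 changed names. Quantile normalization removes any overall shift, and background compresses differences of dim genes.

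No test was possible with 1 array per group, and genes were counted at 2-fold. The number of arrays limits the precision. The members, the gene lists and the rules were chosen with earlier results of these data known. All 9 members could be named, up to 4 genes per list by size of the difference of stable Set8b from vector, and 5 nearest patterns. The genes outside the rule (such as ADAM17, ADAM10, CDH1, EPCAM and ERBB4) were named for their roles. NRP1, CD9 and MUC1 were named for probe sets that differed from the brightest. Steps were tested on simulated data. The software was matplotlib 3.10.9, scipy 1.17.1, pandas 2.3.3 and numpy 2.4.6 under Python 3.11.15. Alternatives changed the normalization, floor, filter, probe set and threshold.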

Additional observations from a re-analysis of the deposited data

How the results depend on the processing

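The count of members at least 2-fold higher with stable Set8b than with wild-type Set8b was the least settled. It was 2, and became 4 with no filter on dim probe sets, 1 among the brightest 25% of probe sets, 1 with the _x_at and _s_at probe sets left out, and 1 at a threshold of 3-fold. Fewer probe sets or a higher threshold make the lower counts by construction, and the 4 include the dim EREG and BTC. Over vector the count of 3 became 1 at 3-fold. The other counts moved by no more than 1.5 times under the alternatives run. No single member past 2-fold changed sign. With the mean over probe sets ERBB3 was at -1.44 and NRG1 at 0.54 log2 over vector, and without _s_at probe sets NRG1 had no probe set past the filter. A filter at the median of single-symbol probe sets (51.4), chosen after seeing the data, changed no count. Signals below about 50 may be background. No paired analysis was possible because each construct had 1 array.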
